A study of Mus musculus with 10 samples.

Results

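Nuclear receptors are transcription factors that bind DNA and, in many cases, a small fat-soluble ligand such as a steroid, a retinoid or thyroid hormone. Most bind a hexamer close to AGGTCA, alone or as pairs, and they repress genes through corepressors and activate them through coactivators, often switching when ligand binds. In the ovary they are best known from granulosa cells, which answer to oestrogen, while the oocyte is known for Nr6a1 (germ cell nuclear factor), a repressor of Gdf9 and Bmp15 in the mouse.

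The family was taken as all probe sets whose only gene symbol in the platform annotation was that of a classical nuclear receptor, by a fixed naming pattern. This gave 108 probe sets of 41 genes, out of 45037 probe sets without controls, of which 34945 had 1 symbol for 18193 genes. The rule used symbols and no measured value, but Nr2c1 was already known to be strongly reduced when the family was picked, so its size is given as a description. The receptors were measured in 2 groups of mouse oocytes at the germinal vesicle stage, fully grown and arrested in prophase of meiosis I. The groups were 5 samples of oocytes depleted of CTCF, the zinc finger protein that binds insulators and anchors chromatin loops, and 5 samples of wild-type oocytes. The labels gave no strain, age, allele, method of depletion or number of oocytes, and left unsaid if each sample came from other animals, which means that the spread behind the p-values may be technical. Each sample was 1 single-colour array of biotin-labelled RNA, read as MAS5 signals, a linear intensity per probe set.

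Before any receptor is read, 2 features of the arrays bear on the comparison. Ctcf fell on each of its 2 probe sets, with log2 fold changes, depleted over wild type, of -5.43 and -5.01. Probe set 1449042_at had signals of 29.3, 17.2, 22.3, 16.7 and 95.8 in depleted replicates 1 to 5, and 898 to 1071 in wild-type oocytes, so depleted replicate 5 kept the most Ctcf signal. Wild-type replicate 2 stood apart in granulosa and cumulus markers: the summed signal of 16 such markers was 675 to 994 on the depleted arrays, 793 to 887 on the other wild-type arrays and 2511 on that array. It had the highest of 10 signals for 8 of the 16 markers, and 11 of the 16 lay above background on all 10 arrays, with Tnfaip6 above it on none. Most of the sum on wild-type replicate 2 came from Gja1 (1017), Inha (536) and Inhbb (293). Fshr went the other way, with 13.4 on that array and 20.3 to 57.2 on the others. Kitl and Esr2 lay there within the range of the other wild-type arrays. The arrays measure RNA in bulk, so fewer cells of a type and less RNA per cell cannot be told apart in any value given here. Oocyte markers such as Zp3 and Gdf9 lay above background on all arrays for 14 of 14 genes, with sums of 69268 to 79341 in depleted and 73542 to 81019.9 in wild-type oocytes. Background here means the highest of 27 Bacillus control probe sets on the array, a signal of 4.75 to 10.9 on depleted and 6.15 to 10.2 on wild-type arrays. Correlations between arrays across probe sets, which are not independent, were 0.982 to 0.986 within groups and 0.976 to 0.981 between them.

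**Figure D1:**
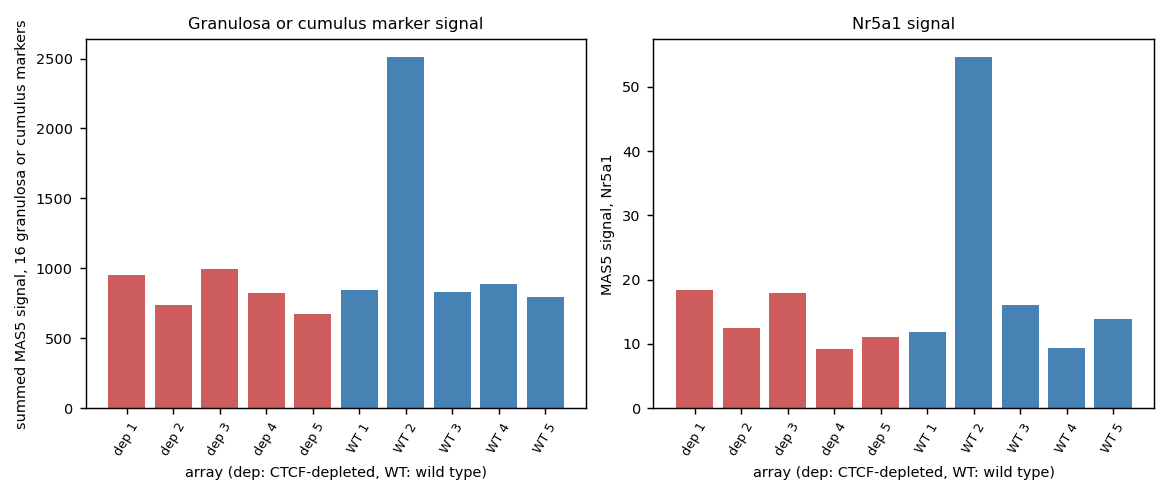
Left, the summed MAS5 signal of 16 granulosa or cumulus markers on each array, and right, the signal of the receptor Nr5a1 on the same arrays, with depleted arrays left of wild-type arrays. Wild-type replicate 2 has a sum of 2511 and an Nr5a1 signal of 54.7, both above the other 9 arrays.

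Of the 41 receptor genes, 23 lay above background on all 5 depleted arrays and 26 on all 5 wild-type arrays, and the extra 3 were Nr0b2, Nr4a1 and Rarb. For 6 genes no probe set lay above background on any array: Hnf4g, Nr0b1, Nr2f1, Nr3c2, Rxrg and Vdr. A filter on mean signal over both groups kept 63 of the 108 probe sets, from 30 genes. The 45 others had group means no higher than 6.19, and the 11 genes without a tested probe set were those 6 and Esrra, Nr1h4, Nr4a3, Rara and Rorb. In limma, at a threshold of 0.05 on p-values adjusted by Benjamini-Hochberg over 27022 probe sets, 13 of the 63 differed between groups, or 20.6%, against 12.6% of all tested probe sets. Of these, 5 were higher and 8 lower in depleted oocytes, where 5.48% of all tested probe sets were higher and 7.12% lower. The 13 include Nr2c1, whose fall was already known, and repeated probe sets of Thra, Nr4a2 and Rora, so the family shares are descriptions. By the brightest probe set of each gene, 7 of the 30 tested receptor genes were called, against 16.4% of all tested genes. The share of lower calls over all probe sets was 56.5% and became 33.3% when each array was centred on its median, a scaling under which the receptors gave 7 higher and 6 lower. The groups did not overlap for 12 of the 63, or 19.0%, against 11.1% of all tested probe sets, and 5 of the 12 were higher and 7 lower, where 4.69% of all were higher and 6.38% lower without overlap. The median log2 fold change, depleted over wild type, was -0.03 for the receptors and -0.02 for all probe sets, and the median absolute change was 0.19 and 0.16.

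The calls fell on 9 genes. Nr1d1, Nr4a2 and Rxra were called higher, and Nr2c1, Thra, Rarb, Nr2e1 and Nr6a1 lower, on at least 1 probe set each. Rora had 1 called probe set in each direction. Uncalled probe sets of Rxra (-0.19), Nr4a2 (-0.17 and -0.04) and Nr6a1 (0.06) had the opposite sign on the log2 scale. Other uncalled probe sets of Nr4a2 and Nr6a1 had the same sign as the call. Only the calls for Nr2c1 and Rarb were at least 2-fold in the fit, where a small offset is added to each signal. Of the 13, 8 were under 1.5-fold, and the smallest was 1.23-fold. By mean signal without the offset, Nr4a2 1455034_at was at 204% and Rora 1458145_at at 49.3% of wild type. With an offset of 16, which shrinks dim signals more, Rarb had a log2 fold change of -0.58 and Nr4a2 1455034_at one of 0.59, and both calls held. By class, the called probe sets were 3 lower of 18 among TR2, TR4 and the other orphan receptors, 3 lower of 4 among thyroid hormone receptors, and 1 higher and 1 lower of 6 among retinoid receptors. There were 2 higher and 1 lower of 9 among the REV-ERB and ROR receptors, and 2 higher of 6 in the NR4A group. Among 8 probe sets of steroid receptors, 5 of oestrogen-related receptors, 6 of lipid and bile acid receptors and 1 of Nr0b2, which lacks a DNA-binding domain, 0 were called by limma after adjustment.

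**Figure D2:**
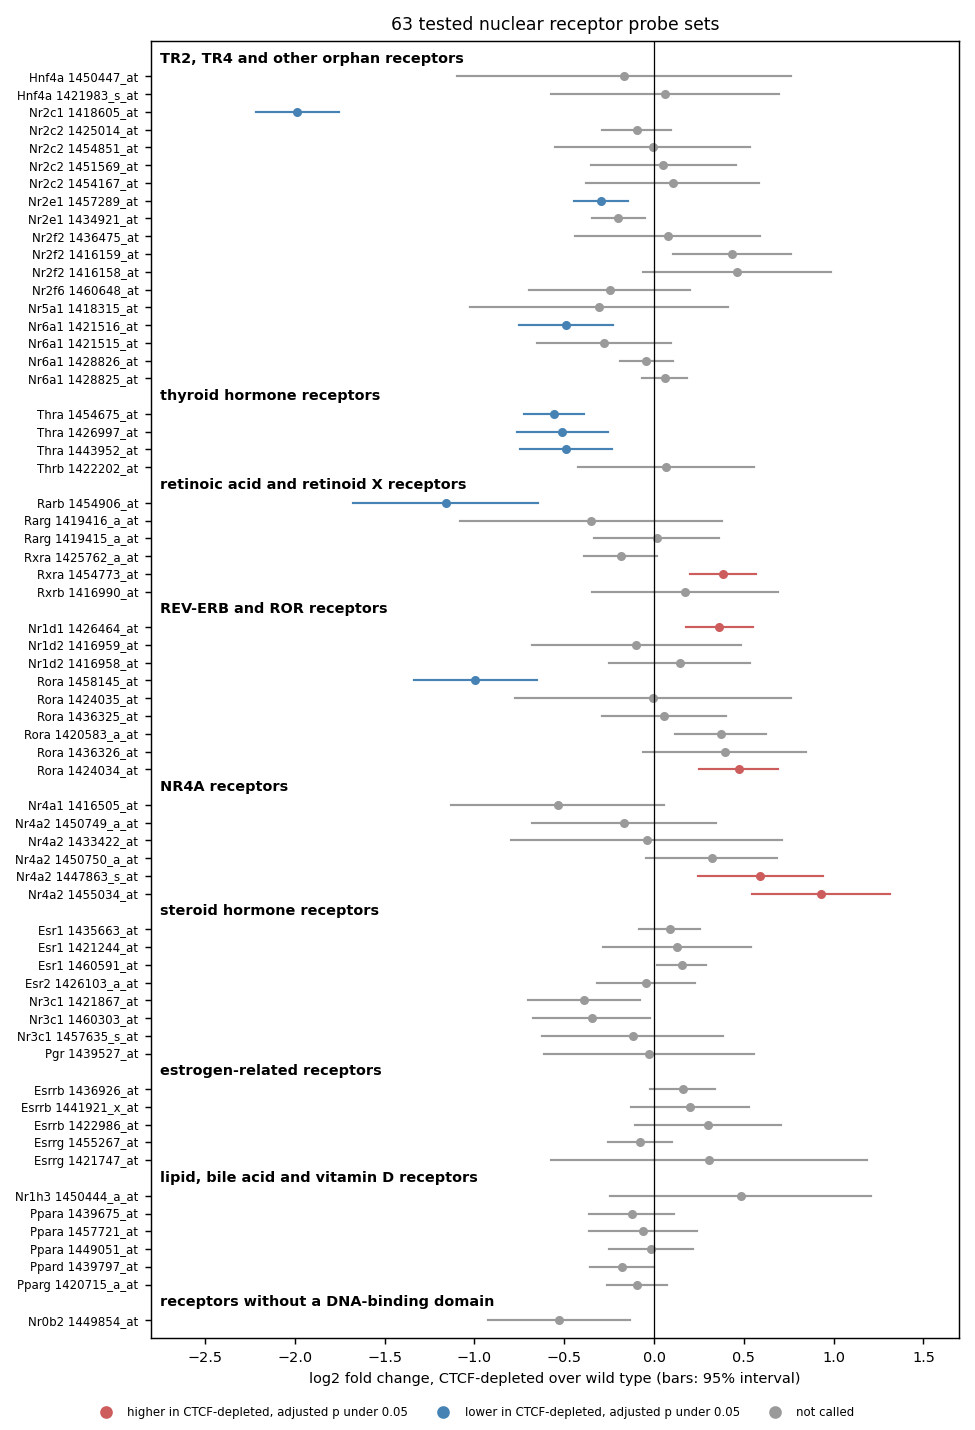
The log2 fold change, CTCF-depleted over wild type, of the 63 tested receptor probe sets by class, with 95% intervals from limma and colours for the adjusted call. Nr2c1 lies at -1.99, Rora 1458145_at at -0.99 and Nr4a2 1455034_at at 0.93. Rarb is drawn at -1.16, but it was above background on 1 of 5 depleted arrays, so its size depends on the offset.

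Nr2c1 encodes TR2, an orphan receptor that pairs with TR4 on direct repeats of the hexamer and is known in mouse as a repressor of embryonic globin genes. Its probe set 1418605_at had signals of 49.0, 45.6, 55.9, 39.6 and 53.9 in depleted oocytes, and 198, 238, 194, 193 and 178 in wild-type oocytes. The groups lay far apart, and the depleted mean of 48.8 ± 6.53 was 24.4% of the wild-type mean of 200.3 ± 22.2 (SD, n = 5 each). The log2 fold change was -1.99 ± 0.11 (SE), with a 95% interval of -2.22 to -1.76 and a limma adjusted p of 3.37e-09. The fall was known when the family was picked, so these values describe it and do not test it. The other 4 Nr2c1 probe sets reached at most 8.63 and lay above background on no array, so the value rests on 1 probe set. Nr2c2 encodes TR4, the partner receptor. On its brightest probe set, 1425014_at, it averaged 93.1 ± 6.35 in depleted and 99.8 ± 7.49 in wild-type oocytes (SD, n = 5 each), a log2 fold change of -0.10 with an interval of -0.29 to 0.10 and a limma adjusted p of 0.564. The other 3 tested Nr2c2 probe sets had log2 fold changes of -0.01 to 0.10, all uncalled.

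CTCF binds a long motif whose core can be written as CCNNNAGNNGGC, and the 250 bases before the annotated start were searched for it on both strands in RefSeq promoters of build GRCm38.p6. It occurred in 7.17% of 32851 promoters and in 5 of the 57 promoters of the 37 receptor genes the table held, or 8.77%: those of Nr2c1, Nr1d1, Esrra, Nr4a1 and Ppara. The promoters of Nr2c1 and Nr1d1 are shown because both genes were called and both carry the core, given in capitals. In Nr2c1 it starts 92 bases before the start of the gene. In Nr1d1 it lies on the opposite strand, so its reverse complement is in capitals, 23 bases before the start. A match of letters is a description and not a bound site, and CTCF binding was not measured here.
Nr2c1 chr10:94147681-94147930, plus strand: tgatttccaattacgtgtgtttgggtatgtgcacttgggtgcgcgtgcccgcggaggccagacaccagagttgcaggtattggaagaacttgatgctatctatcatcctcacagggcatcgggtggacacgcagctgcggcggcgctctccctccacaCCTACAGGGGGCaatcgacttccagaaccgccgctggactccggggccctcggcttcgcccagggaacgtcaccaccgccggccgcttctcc
Nr1d1 chr11:98775378-98775627, minus strand: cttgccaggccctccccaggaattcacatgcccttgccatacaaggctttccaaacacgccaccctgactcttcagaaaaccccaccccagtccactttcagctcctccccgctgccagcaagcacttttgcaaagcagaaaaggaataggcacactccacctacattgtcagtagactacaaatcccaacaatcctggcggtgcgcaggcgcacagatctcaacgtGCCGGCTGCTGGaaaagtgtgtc

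The measured genes beside Nr2c1 on chromosome 10 were compared with it, the 3 nearest on each side in the RefSeq gene table. On one side, Fgd6 was the nearest, and it averaged 1186 ± 103 in depleted and 1392 ± 39.0 in wild-type oocytes (SD, n = 5 each), a fall of 0.24 on the log2 scale with a limma adjusted p of 0.0103. On the other side, Ndufa12, a subunit of respiratory complex I, averaged 1027 ± 47.2 in depleted and 1263 ± 112 in wild-type oocytes, with a log2 fold change of -0.29 and a limma adjusted p of 0.00433. Both calls were lost when arrays were centred on their medians, with adjusted p-values of 0.253 and 0.0670, and that of Fgd6 also without the intensity trend. Vezt, Metap2, Tmcc3 and Cep83os had log2 fold changes between -0.27 and 0.06 and were not called. Vezt was near background, above it on 1 of 5 depleted and 2 of 5 wild-type arrays, with an interval of -0.80 to 0.26.

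**Figure D3:**
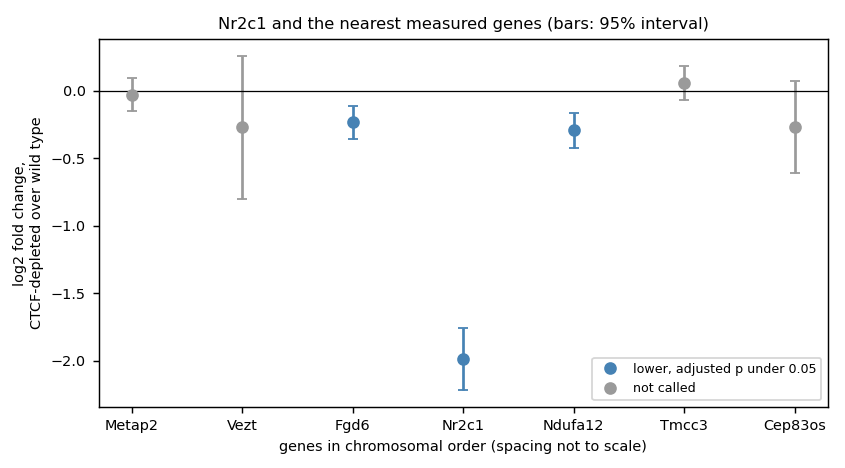
The log2 fold change, CTCF-depleted over wild type, with 95% intervals, of Nr2c1 and the 3 nearest measured genes on each side, in chromosome order and not to scale. Nr2c1 lies at -1.99, Ndufa12 at -0.29 and Fgd6 at -0.24, and the other neighbours have intervals that include 0.

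Nr6a1, the germ cell nuclear factor named above, is needed to silence Pou5f1 in the early mouse embryo. Its called probe set, 1421516_at, gave 86.0, 87.26, 67.8, 63.0 and 75.1 in depleted oocytes, and 106, 119.6, 87.30, 96.0 and 129.7 in wild-type oocytes. The groups came within 0.1 of touching, and the log2 fold change was -0.49 ± 0.12 (SE), with a limma adjusted p of 0.0142. The brightest Nr6a1 probe set, 1428825_at, averaged 923 ± 34.0 in depleted and 887 ± 74.7 in wild-type oocytes (SD, n = 5 each), a log2 fold change of 0.06 with an interval of -0.07 to 0.19 and an adjusted p of 0.600. Probe set 1428826_at was also bright, with 564 ± 42.2 in depleted and 581 ± 46.2 in wild-type oocytes and a log2 fold change of -0.04, and 1421515_at had -0.28, both uncalled. The log2 difference between 1428825_at and 1421516_at was 3.57 ± 0.17 in depleted and 3.02 ± 0.32 in wild-type oocytes (SD, n = 5 each), a description with no test, since the pair was chosen for its calls. Which transcripts these probe sets read is not given in the files.

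Nr2e1 encodes TLX, an orphan receptor known for holding neural stem cells in a dividing state. Probe set 1457289_at had 299.6, 305, 344, 336 and 305 in depleted oocytes, and 427, 345, 402, 389.8 and 392 in wild-type oocytes. Wild-type replicate 2 was the lowest of its group and came within 2 units of the highest depleted array, and the log2 fold change was -0.30 ± 0.07 (SE, limma adjusted p = 0.00970). The brighter 1434921_at gave 572, 504, 567, 517 and 519 in depleted oocytes, and 629, 519, 642, 652 and 639 in wild-type oocytes, a log2 fold change of -0.20 with an adjusted p of 0.0750. Without wild-type replicate 2, the array with the highest sum of granulosa markers, it was -0.26 with a limma adjusted p of 0.0123. The part of those cells in this value was not tested.

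Among the other orphan receptors, Nr2f2 (COUP-TFII, a regulator of vessel and stromal development) averaged 29.4 ± 5.28 in depleted and 21.0 ± 2.67 in wild-type oocytes on 1416159_at (SD, n = 5 each). Its log2 fold change was 0.44, with an interval of 0.11 to 0.76 that excluded 0 before adjustment, and a limma adjusted p of 0.0811. Nr5a1, steroidogenic factor 1, averaged 13.8 ± 4.15 in depleted and 21.2 ± 18.9 in wild-type oocytes, where replicate 2 alone reached 54.7. Its log2 fold change was -0.31 with all arrays and 0.08 without that replicate, with limma adjusted p-values of 0.634 and 0.888. Nr5a1 is itself 1 of the granulosa markers, and Nr2f6 (-0.25) and both tested Hnf4a probe sets (-0.17 and 0.06) were dim and uncalled.

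Thyroid hormone receptor alpha, Thra, represses its targets without hormone and activates them with it. It was lower on all 3 of its tested probe sets. On 1454675_at the signals were 182, 152, 171, 155 and 169.7 in depleted oocytes, and 264, 225, 244, 231 and 262 in wild-type oocytes, with no overlap and a log2 fold change of -0.56 ± 0.08 (SE, limma adjusted p = 0.000121). On 1426997_at they were 74.0, 46.7, 49.2, 54.6 and 57.5 in depleted oocytes, and 80.0, 83.9, 75.9, 76.9 and 85.8 in wild-type oocytes. Depleted replicate 1 stood nearest to wild type there, and the log2 fold change was -0.51 ± 0.12 (limma adjusted p = 0.00873). On 1443952_at the groups overlapped, with 74.2, 65.5, 63.4, 56.2 and 52.9 in depleted oocytes, and 96.4, 91.6, 70.6, 102 and 83.9 in wild-type oocytes, and the log2 fold change was -0.49 ± 0.12 (limma adjusted p = 0.0119). The 3 probe sets thus moved by similar amounts, and all 3 calls held under 20 of 20 other settings. Thrb, the beta receptor, had 11.3 ± 2.76 in depleted and 10.7 ± 3.23 in wild-type oocytes (SD, n = 5 each), a log2 fold change of 0.07 with an interval of -0.43 to 0.56.

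Nr1d1 encodes REV-ERB alpha, the heme-binding repressor of Arntl in the circadian clock, and its gene span overlaps that of Thra by 1075 bases in the RefSeq table. Its probe set 1426464_at had 329, 415, 295, 334 and 301 in depleted oocytes, and 275, 275, 249, 239 and 253 in wild-type oocytes. All depleted arrays lay above all wild-type arrays, with replicate 2 the highest, and the log2 fold change was 0.36 ± 0.09 (SE, limma adjusted p = 0.0107). With the ratio of 3-prime to 5-prime control signal as a covariate it was 0.27, with an adjusted p of 0.0553. That log2 ratio was 2.60 to 2.96 on depleted and 2.80 to 3.11 on wild-type arrays, and the part of RNA quality in the Nr1d1 value was not tested. So the 2 overlapping neighbours, Nr1d1 and Thra, differed in opposite directions. Nr1d2 (REV-ERB beta) had log2 fold changes of 0.14 and -0.10, both uncalled.

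Rora, the retinoid-related orphan receptor alpha, activates the sites that REV-ERB represses, and its probe sets disagreed. Probe set 1458145_at had 47.9, 33.0, 32.8, 26.1 and 46.9 in depleted oocytes, and 58.7, 77.6, 86.4, 69.5 and 86.6 in wild-type oocytes, a log2 fold change of -0.99 ± 0.16 (SE, limma adjusted p = 0.000513). Probe set 1424034_at had 231, 244, 218, 197 and 244 in depleted oocytes, and 188, 127, 154, 166 and 184 in wild-type oocytes, a log2 fold change of 0.47 ± 0.10 (limma adjusted p = 0.00562). In neither did the groups overlap. The log2 difference of 1424034_at over 1458145_at was 2.55 ± 0.27 in depleted and 1.09 ± 0.37 in wild-type oocytes (SD, n = 5 each). The pair was chosen for its opposite calls, so this difference is a description with no test. Probe set 1420583_a_at averaged 158 ± 6.58 in depleted and 124 ± 26.1 in wild-type oocytes, a log2 fold change of 0.37 at an adjusted p of 0.0511. It passed the threshold in 9 of 20 other settings, among them median centring (0.46, limma adjusted p = 0.0213) and the omission of wild-type replicate 1 (0.46, 0.0153) or wild-type replicate 5 (0.43, 0.0327). The other 3 tested Rora probe sets had log2 fold changes of 0.39, 0.06 and -0.00, so no single direction describes the gene.

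**Figure D4:**
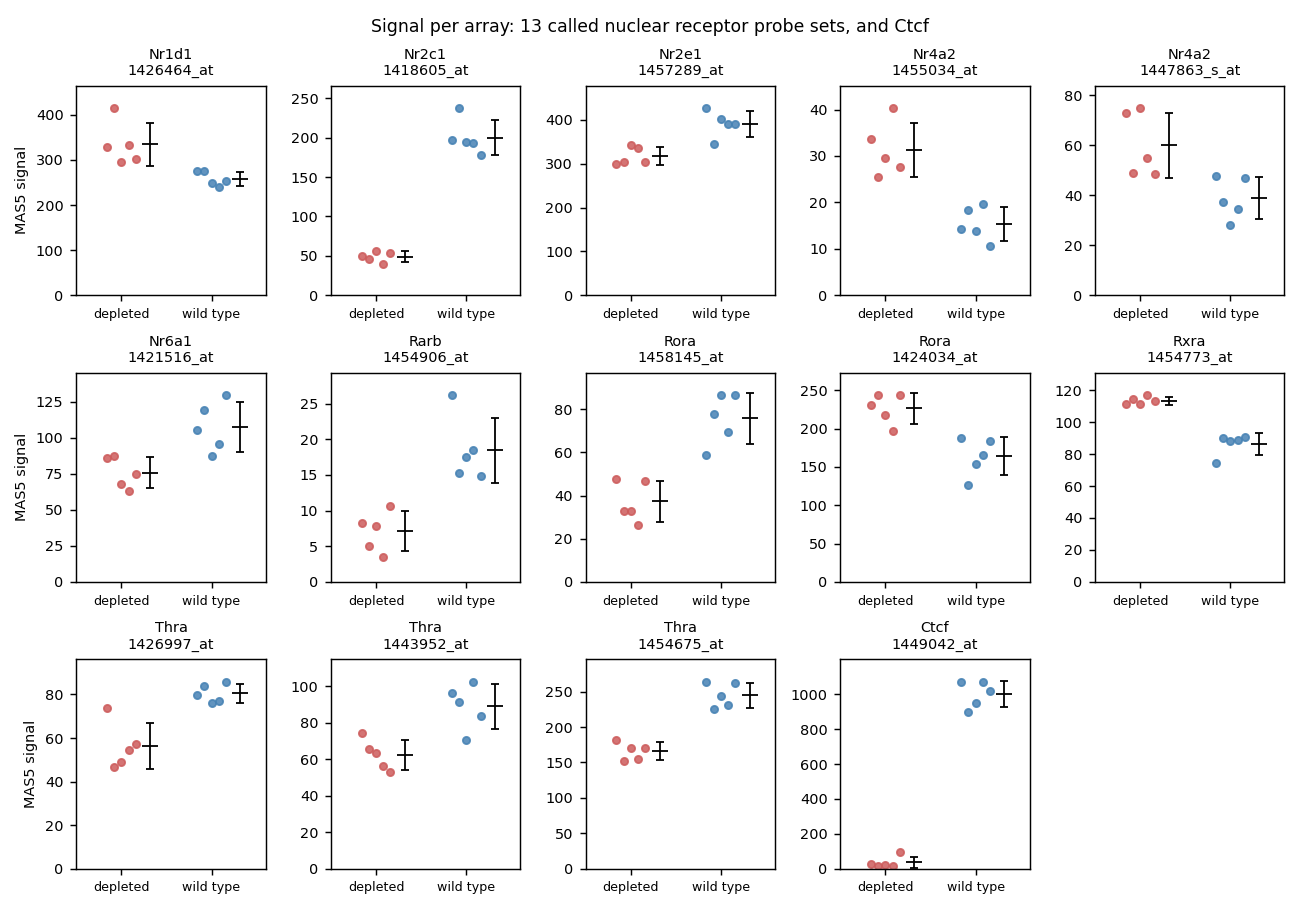
MAS5 signal on each array for the 13 called receptor probe sets and for Ctcf, with depleted oocytes left of wild-type oocytes, points for arrays, and the mean with SD beside them (5 arrays each). The groups overlap for Thra 1443952_at alone among the 13, and the 2 Rora panels run in opposite directions.

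Rarb, retinoic acid receptor beta, is induced by retinoic acid through a repeat in its own promoter. Its probe set 1454906_at was dim, with 8.30, 5.07, 7.85, 3.56 and 10.7 in depleted oocytes, and 26.2, 15.3, 17.6, 18.5 and 14.8 in wild-type oocytes. It lay above background on 1 of 5 depleted and 5 of 5 wild-type arrays, and the log2 fold change was -1.16 ± 0.24 (SE, limma adjusted p = 0.00392). At this signal the added offset understates the change. The retinoic acid repeat was written here as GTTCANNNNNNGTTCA, with the half-site letters found in Rarb and not AGGTCA, so its match in Rarb is no test. Searched on both strands, it occurred in 0.0670% of the 32851 promoters and, among the 57 receptor promoters, in that of Rarb alone. That promoter is shown because it carries the repeat, given in capitals, which starts 52 bases before the start of the gene.
Rarb chr14:16575477-16575726, minus strand: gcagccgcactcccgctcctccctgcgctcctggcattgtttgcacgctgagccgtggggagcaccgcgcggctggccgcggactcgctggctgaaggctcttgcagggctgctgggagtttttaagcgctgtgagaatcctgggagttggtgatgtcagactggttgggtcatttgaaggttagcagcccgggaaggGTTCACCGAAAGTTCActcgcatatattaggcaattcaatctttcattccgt
The half-site AGGTCA itself occurred in 17.5% of receptor promoters and 14.0% of all promoters in the table. Its direct repeats AGGTCANAGGTCA and AGGTCAAGGTCA occurred in 0 of 57, which concerns these letters in this window only.

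The retinoid X receptors are the common partners of the retinoic acid, thyroid hormone, lipid and vitamin D receptors. Rxra 1454773_at had 111, 114, 111, 117 and 113 in depleted oocytes, and 74.1, 90.3, 87.9, 89.0 and 90.9 in wild-type oocytes. The depleted arrays lay close together above all wild-type arrays, and the log2 fold change was 0.38 ± 0.09 (SE, limma adjusted p = 0.00685). Its other tested probe set, 1425762_a_at, averaged 88.9 ± 6.47 in depleted and 102 ± 10.3 in wild-type oocytes (SD, n = 5 each), a log2 fold change of -0.19 with an interval of -0.39 to 0.02 and an adjusted p of 0.242. Rxrb (0.17, interval -0.34 to 0.69) and Rarg (0.01 and -0.35), the gamma receptor for retinoic acid, were not called.

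The NR4A receptors are immediate early genes that act without a known natural ligand. Nr4a2 (Nurr1) 1455034_at had 33.6, 25.4, 29.7, 40.3 and 27.6 in depleted oocytes, and 14.2, 18.4, 13.9, 19.7 and 10.6 in wild-type oocytes, a log2 fold change of 0.93 ± 0.18 (SE, limma adjusted p = 0.00229). Probe set 1447863_s_at had 73.0, 48.8, 74.8, 54.7 and 48.3 in depleted oocytes, and 47.8, 37.2, 28.2, 34.5 and 46.9 in wild-type oocytes, a log2 fold change of 0.59 ± 0.17 (limma adjusted p = 0.0248). The groups did not overlap on either, though on the second the gap was under 1 unit. That second call was lost without depleted replicate 1, depleted replicate 3, wild-type replicate 3 or wild-type replicate 4, with limma adjusted p-values of 0.0641, 0.0664, 0.0690 and 0.0598. The other 3 tested Nr4a2 probe sets had log2 fold changes of 0.32, -0.04 and -0.17, none called. Nr4a1 (Nur77) averaged 10.1 ± 4.42 in depleted and 15.5 ± 5.68 in wild-type oocytes, above background on 2 and 5 arrays, and its log2 fold change of -0.54 had an interval of -1.13 to 0.06.

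The 4 tested steroid receptor genes, Esr1, Esr2, Nr3c1 and Pgr, gave no call; Nr3c2 was too dim to test. Esr1, oestrogen receptor alpha, averaged 369 ± 13.5 in depleted and 331 ± 22.2 in wild-type oocytes on 1460591_at (SD, n = 5 each), a log2 fold change of 0.16 with an interval of 0.02 to 0.29 and a limma adjusted p of 0.135. On 1435663_at it averaged 277 ± 18.0 in depleted and 261 ± 26.8 in wild-type oocytes, with 0.09. Esr2, the oestrogen receptor of granulosa cells and 1 of the markers used for them, averaged 123 ± 27.2 in depleted and 125 ± 15.8 in wild-type oocytes, a log2 fold change of -0.04 with an interval of -0.32 to 0.23. The glucocorticoid receptor Nr3c1 had log2 fold changes of -0.39, -0.35 and -0.12, the first with a limma adjusted p of 0.0986, and the progesterone receptor Pgr had -0.03 near background.

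The oestrogen-related receptors, which drive energy metabolism genes without a steroid ligand, were also uncalled. Esrrb, known from pluripotent stem cells, averaged 186 ± 17.0 in depleted and 166 ± 14.0 in wild-type oocytes on 1436926_at, a log2 fold change of 0.16 with an interval of -0.02 to 0.34, and its other 2 probe sets had 0.20 and 0.30. Esrrg averaged 246 ± 32.3 in depleted and 258 ± 8.12 in wild-type oocytes, with -0.08 and an interval of -0.25 to 0.10. Among receptors for lipids, Ppard averaged 203 ± 21.6 in depleted and 229 ± 13.7 in wild-type oocytes, with -0.18 and an interval of -0.36 to -0.00, and a limma adjusted p of 0.193. Pparg, the fat cell receptor, averaged 176 ± 15.4 in depleted and 188 ± 9.84 in wild-type oocytes, with -0.09 and an interval of -0.26 to 0.07. The log2 fold changes of Ppara were -0.12, -0.06 and -0.02, and that of the oxysterol receptor Nr1h3, near background, was 0.48. Nr0b2 (small heterodimer partner), which blocks other receptors, averaged 13.5 ± 3.38 in depleted and 20.2 ± 2.55 in wild-type oocytes, a log2 fold change of -0.53 with an interval of -0.92 to -0.14 and a limma adjusted p of 0.0758. These intervals bound the changes and do not show that the groups were alike.

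Partners and targets of the receptors were read from lists of general knowledge, each gene by its brightest probe set, where 7.26% of 13811 genes were higher and 9.12% lower in depleted oocytes. By the same measure, 7 receptor genes were called, 4 higher and 3 lower. Of 31 coactivators tested, 3 were higher and 1 lower, with a median log2 fold change of -0.03 against -0.02 over all genes. Ncoa3, which acetylates histones at receptor sites, averaged 967 ± 43.2 in depleted and 823 ± 17.5 in wild-type oocytes (SD, n = 5 each), a log2 fold change of 0.23 (limma adjusted p = 0.00436). The arginine methyltransferase Carm1 had 0.91, Psmc3ip, a meiotic recombination factor that also binds steroid receptors, had 0.25, and the histone methyltransferase Nsd1 had -0.26. Of 35 corepressors, 2 were higher and 3 lower, with a median of -0.02. Nr2c2ap, which binds TR4 and blocks it, averaged 373 ± 25.3 in depleted and 304 ± 14.0 in wild-type oocytes, a log2 fold change of 0.29 ± 0.07 (SE, limma adjusted p = 0.00685), and the demethylase Kdm1a had -1.22. The other calls were Tbl1xr1 (0.41), a part of the NCoR complex, Zmynd8 (-0.23) and Nsd1, which stands in both lists, and they were less stable. Another Tbl1xr1 probe set was called lower, at -0.66, and the call of 0.41 was lost in 7 of 20 other settings, that of Zmynd8 in 4 and that of Nsd1 under median centring. Single-array omissions left 1 or 2 higher corepressors, and median centring left 1 lower. In RNA, Nr2c2ap was higher, Nr2c2 was uncalled, and Nr2c1, whose fall was already known, was lower. A link among the 3 was not tested, and receptor activity was not measured.

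Of 19 listed chaperones and co-chaperones of steroid receptors, 7 were higher and 0 lower after adjustment in limma, with a median of 0.11. Over all genes, 7.26% were higher and 9.12% lower. The 7 were Hspa1a (0.96), Hspa1b (0.45), Stip1 (0.33), Hspa4 (0.21), Dnajb1 (0.18), Ahsa2 (0.18) and Dnaja1 (0.13), all general heat shock or co-chaperone genes. Among the uncalled were Hsp90aa1 (-0.05), Fkbp4 (0.03), Fkbp5 (0.06), Cdc37 (0.02), Ppp5c (0.11) and Ahsa1 (-0.14). With single arrays left out 4 to 7 of the list were higher, and without the intensity trend 2 were. Hspa1a and Hspa4 were called under all 20 other settings.

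Of 21 genes that make, carry or break down retinoids and thyroid hormone, 1 was higher and 2 were lower, with a median of -0.06. Aldh1a2, which makes retinoic acid from retinal, averaged 241 ± 33.0 in depleted and 353 ± 25.1 in wild-type oocytes, a log2 fold change of -0.55 (limma adjusted p = 0.000484). Rdh10, which makes the retinal, averaged 1701 ± 60.7 in depleted and 1388 ± 74.8 in wild-type oocytes, a log2 fold change of 0.29 (limma adjusted p = 0.000559). The enzymes of 2 successive steps thus differed in opposite directions, and both calls held under 20 of 20 other settings. Rdh12, a retinal reductase, had -0.27, a call lost without wild-type replicate 1 or 3. It was also lost under median centring and without the intensity trend (highest limma adjusted p over all settings 0.186). Of 16 targets of retinoic acid, thyroid hormone and vitamin D receptors, 0 were higher and the only 1 lower was Rarb itself, with a list median of 0.01.

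Of 14 LXR and sterol targets, 3 were lower and 0 higher by limma, with a median of -0.25. Mylip, the ligase that degrades the LDL receptor, averaged 46.2 ± 10.5 in depleted and 152 ± 20.6 in wild-type oocytes, a log2 fold change of -1.69 ± 0.14 (SE, limma adjusted p = 4.88e-07), or 3.22-fold lower. Srebf1 (-0.21) and Abcg1 (-0.21), a lipid regulator and a sterol exporter, were small calls that most single-array omissions removed, leaving 1 or 2 in the list. Of 24 genes of steroid and sterol synthesis, 3 were higher and 2 lower, with a median of -0.04. Cyp51, a cholesterol synthesis enzyme, had a log2 fold change of 0.60 and Fdx1, which feeds electrons to steroid-making P450 enzymes, had 0.34, while the oxysterol and cholesterol hydroxylases Cyp7b1 and Cyp46a1 had -0.63 and -0.48. The third higher gene, Hsd17b7, had 0.26, a call that most single-array omissions removed. Of 22 PPAR and ERR targets, 1 was higher (Sdhb, 0.18) and 3 lower (Lpl -0.30, Cd36 -0.35 and Acadl -0.53), with a median of -0.01. The lipid uptake genes Lpl and Cd36 kept their calls in each single-array omission, though Cd36 lost its own under median centring (limma adjusted p = 0.102), which left 1 lower gene in the list, while the calls of Sdhb and Acadl were each lost in 5, with limma adjusted p-values up to 0.0866 and 0.0816 over all settings.

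Of 22 steroid receptor targets, 1 was higher and 2 lower, with a median of -0.03. Dusp1, a phosphatase induced by glucocorticoids, averaged 2469.6 ± 128 in depleted and 1651 ± 89.2 in wild-type oocytes, a log2 fold change of 0.58 (limma adjusted p = 6.21e-07). Ddit4, induced by the same hormones, averaged 1051 ± 214 in depleted and 1941 ± 120.0 in wild-type oocytes, a log2 fold change of -0.91 (limma adjusted p = 3.11e-05), so these targets differed in opposite directions. Of 19 clock genes that REV-ERB and ROR control or work with, 4 were higher and 2 lower, with a median of -0.01. Ciart (0.64), a repressor of the clock activators, was called under all 20 other settings. Nfil3 (0.29) and Per3 (0.25) were also higher, with calls lost without the intensity trend and with the RNA quality covariate. Bhlhe40 (0.58) was higher too, a call lost in 7 of the 20. The covariate left 2 higher clock genes, and over all settings the lowest count was 1. Arntl, the REV-ERB target, averaged 599 ± 43.0 in depleted and 699.7 ± 46.7 in wild-type oocytes, a log2 fold change of -0.22 (limma adjusted p = 0.0283), and Per1 had -0.29. The last 2 calls were lost under median centring, with limma adjusted p-values up to 0.364 for Arntl and 0.116 for Per1, and single-array omissions left 0 or 1 lower gene in the clock list.

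Of 18 genes listed from general knowledge as oocyte genes or targets of TR2, TR4 or GCNF, 2 were higher and 0 lower by limma. The list median was 0.04. Sox2, a pluripotency factor, averaged 63.0 ± 6.61 in depleted and 28.9 ± 3.59 in wild-type oocytes, a log2 fold change of 1.06 ± 0.12 (SE, limma adjusted p = 1.97e-05). Prm2, a sperm protamine, averaged 97.6 ± 9.39 in depleted and 69.4 ± 6.03 in wild-type oocytes, with 0.48 (limma adjusted p = 0.00433). Gdf9 and Bmp15, the oocyte growth factors that GCNF represses, had log2 fold changes of 0.00 and -0.00, and Pou5f1 had 0.10, all uncalled. Within the granulosa marker list, where the sum of wild-type replicate 2 stood apart, 2 of 15 tested genes were higher in depleted oocytes. Fshr averaged 47.8 ± 5.75 in depleted and 23.2 ± 6.69 in wild-type oocytes (log2 fold change 1.01), and its lowest signal was on wild-type replicate 2. Ptgs2 averaged 15.0 ± 3.81 in depleted and 4.11 ± 1.57 in wild-type oocytes, above background on 5 depleted and 0 wild-type arrays. Without wild-type replicate 2 all 13 receptor calls remained, with 5 higher and 9 lower. Since 11 of the 16 markers lay above background on all 10 arrays, that omission is no test of granulosa cells. Their part in the receptor values was not tested.

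**Figure D5:**
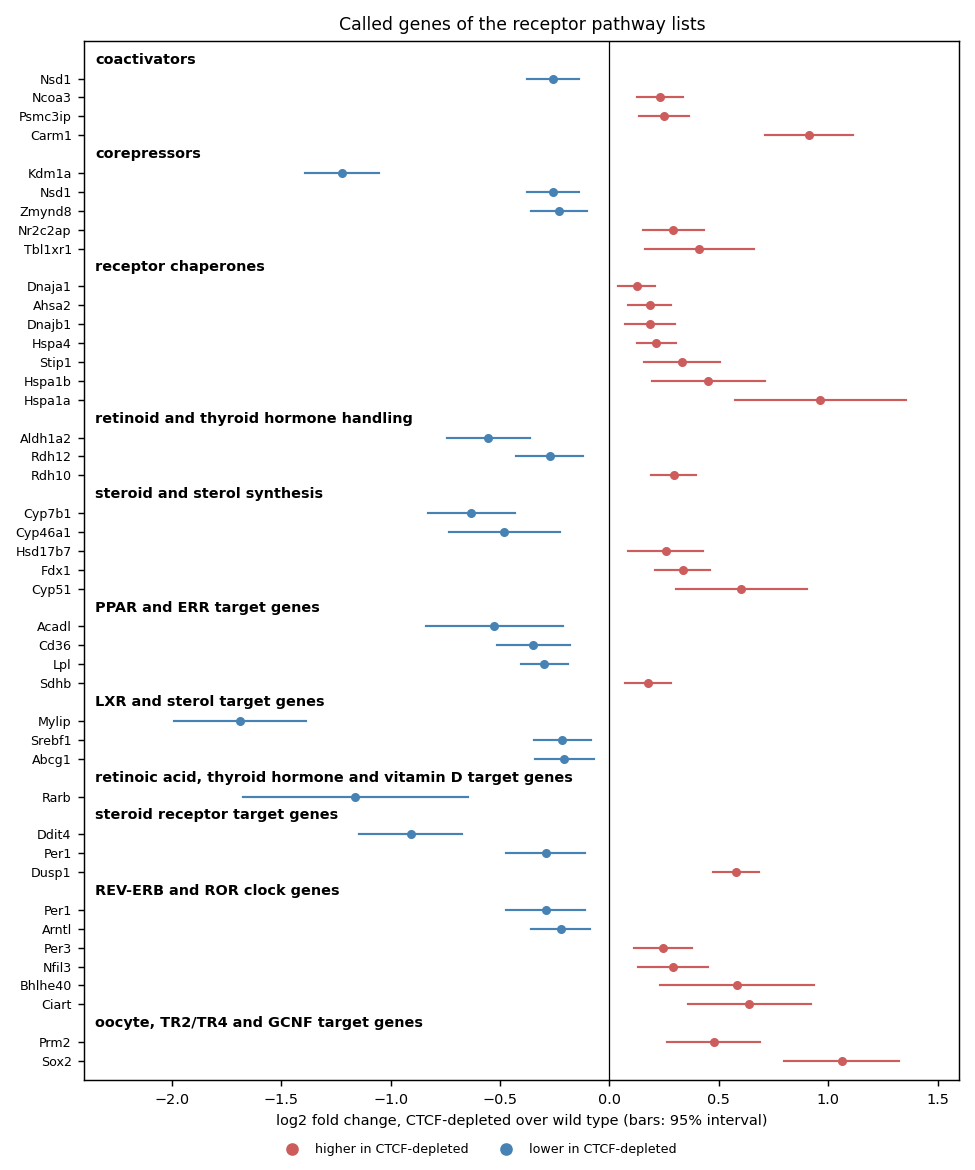
The log2 fold change, CTCF-depleted over wild type, with 95% intervals, of each called gene in the lists of receptor partners, ligand handling and targets. Points to the right are higher in CTCF-depleted oocytes; Mylip at -1.69 and Kdm1a at -1.22 lie farthest left, and Sox2 at 1.06 farthest right.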

How the data were processed

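RNA was extracted with a Picopure kit and labelled with biotin by a small-sample assay, per the labels' protocols. Each deposited value is an intensity on a linear scale for 1 probe set; the authors used MAS5 to make it, per the submitters' processing notes. Its version and the genome build are not given in the sources used here. Every array's trimmed mean was 150.001, so 1 scaling per array had been applied, which assumes equal mean signal in both groups. Dim MAS5 signals vary more, since mismatch probes are subtracted. There is no read depth, so precision depends on the number of arrays.

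The 64 control probe sets were left out. Before log2, 2.47 was added to each signal, its 25th percentile over the table, so dim genes show smaller changes than they had. The dimmest probe sets, below the 40th percentile of mean log2 and so under a signal of about 5.13, were not tested. Groups, taken from the sample titles, were compared with lmFit and eBayes with an intensity trend in limma 3.58.1 (R 4.3.3), with Benjamini-Hochberg adjustment over 27022 probe sets. Of the non-control probe sets, 932 had several symbols and 9160 none, and were never named. All 108 receptor probe sets matched the RefSeq table by gene ID. One receptor gene is not reported here.

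The family, the gene lists and the tests were chosen with earlier results of these data known. Full values go to every called receptor and every receptor whose brightest probe set reached 100 in either group, to up to 4 called genes per list with the smallest adjusted p, and to the 3 measured genes on each side of Nr2c1; other genes were named after their values were seen. Alternatives were other offsets, filters, normalizations and variance models, array weights, a replicate block, an RNA quality covariate and leaving out each array. In simulated data for this comparison of 27022 probe sets, the fit recovered 32% of 100 changes of 0.5 and 65% of 100 changes of 1 on the log2 scale, with 4 false calls among 101. No other probe sets were changed there, while 12.6% were called in the data. The adjustment is stricter when few change, so these rates may not hold for the data.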

Additional observations from a re-analysis of the deposited data

Results flagged for a closer look

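Of 54 groups of 5 arrays looked at, for the bright or called receptors and Ctcf, 4 had 1 array whose gap to the next exceeded 0.71 of the group's range, Dixon's criterion, which chance exceeds in about 1 of 20 groups. On both Ctcf probe sets depleted replicate 5 was the array: 61.1 on 1418330_at, where the other depleted arrays had 7.07 to 14.2, and 95.8 on 1449042_at, where they had 16.7 to 29.3. Without that array all 13 receptor calls remained. On Nr2e1 1434921_at wild-type replicate 2 had 519, against 629 to 652 on the other wild-type arrays. On Rxra 1454773_at wild-type replicate 1 had 74.1, against 87.9 to 90.9 on the other wild-type arrays.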

How the results depend on the processing

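The counts of called receptors stayed within 1.5 times under all 20 alternatives, between 4 and 7 higher and between 6 and 9 lower, and 11 to 13 of the 13 calls were kept in each. Nr2c1 kept its call in all 20, with log2 fold changes of -2.04 to -1.74. The calls of Rarb (in the 19 that tested it), Rora on both probe sets, Rxra, Thra on 3 probe sets and Nr4a2 1455034_at were also kept. Lost calls were Nr2e1 1457289_at (limma adjusted p = 0.100) and Nr6a1 1421516_at (0.0628) under median centring, Nr1d1 with the RNA quality covariate (0.0553), and Nr4a2 1447863_s_at without the trend (0.0627) or without 4 of the single arrays. Rora 1420583_a_at gained a call in 9 settings, and Nr2e1 1434921_at in 2. The offset of 16 brought Rarb to -0.58 and Nr4a2 1455034_at to 0.59. Uncalled values near 0 changed sign: under median centring Metap2 became 0.0545, Esr2 0.0426, Esrrg 1455267_at 0.0097 and Nr6a1 1428826_at 0.0432, and with the covariate Metap2 became 0.0444 and Nr6a1 1428826_at 0.0391. With single arrays left out, Esr2 ran from -0.1617 to 0.0232, positive without depleted replicate 1 or 3 or wild-type replicate 4, and Nr6a1 1428826_at from -0.0768 to 0.0016, positive without depleted replicate 2; the cause was not tested. In the gene lists, median centring moved lower calls to 0 for coactivators and clock genes and to 1 for the corepressor, retinoid handling, PPAR and ERR, LXR and steroid target lists, and higher calls for steroid synthesis to 5. With the replicate number as a block the receptors gave 6 higher and 9 lower, and all probe sets 1592 and 1989. Same-numbered arrays correlated by 0.0024 to 0.0506 in their deviations from group means, under 0.1, and the main fit did not pair them. Such low values do not show that the arrays were unpaired, and the labels do not say. For dim receptors, signal over background limits what can be said.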
